A study of Mus musculus with 6 samples.

Results

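Mitophagy receptors and autophagy adaptors were followed in C2C12 myotubes as 10 genes chosen by symbol: Pink1, Bnip3, Bnip3l, Fundc1, Sqstm1, Optn, Tbk1, Ulk1, Phb2 and Map1lc3b. Each gene was read from the probe set that the platform annotation assigns to it alone, and where there were 2 such rows, from that with the higher mean level on the 6 arrays. This gave 9 of the 10 genes, out of 18820 genes with such a row. Optn, an adaptor that links ubiquitin to the autophagosome, has no single-gene row in the annotation used here and is not analysed here. C2C12 is an immortalized mouse myoblast line whose cells fuse into myotubes when serum is lowered. The cells were kept in 2% horse serum and transfected on day 6 with a locked nucleic acid (LNA) oligonucleotide at 50 nM, and RNA was taken 24 h later, on day 7. Silenced cells were given an LNA against miR-382-5p and control cells a negative control LNA. Each group has 3 arrays, which carry replicate numbers 1 to 3. The study's title asks about a mitonuclear protein imbalance and the mitochondrial unfolded protein response. The labels do not state what same-numbered arrays share, nor that a group's samples were grown separately. The p-values therefore cover only the variation among these arrays, part of which may be technical. Myotubes and unfused myoblasts of 1 dish are read together, and in such bulk RNA fewer cells of a type and less RNA per cell cannot be told apart.

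Mitophagy is the removal of mitochondria by autophagy, in which a membrane coated with proteins of the ATG8 family, among them LC3, closes around its cargo and fuses with a lysosome. Along one route the kinase PINK1 accumulates on depolarized mitochondria and phosphorylates ubiquitin, and adaptors such as SQSTM1 (p62) and OPTN tie the ubiquitin to LC3 with the help of the kinase TBK1. Along another, receptors that sit in the mitochondrial membrane, such as BNIP3, BNIP3L (NIX) and FUNDC1, bind LC3 directly, and ULK1 starts the autophagosome in both. In muscle, Bnip3 is known as a target of FoxO factors and of the hypoxia-inducible factors, and autophagy is part of the turnover of fibres during fasting and exercise.

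The LNA given to the silenced group is directed against the mature miR-382-5p, and the sequence of this target is shown here. It is 22 bases long, lies at chr12:109733781-109733802 on the plus strand of GRCm38.p6 and is given from RefSeq with its seed, bases 2 to 8, in capitals. Its level is not measured by these arrays.
miR-382-5p: gAAGUUGUucgugguggauucg

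None of the 9 genes passed the test for silenced against control, and Bnip3 had the largest difference among them, 0.34 lower on the log2 scale in silenced arrays. Differences between replicate numbers were larger for several of these genes. Bnip3 was 1.46-fold higher in the 2 arrays numbered 1 than in the other 4, the only one of the 9 whose number difference passed. That call holds for the row used, and the other row of Bnip3 did not pass. Sqstm1, Map1lc3b, Pink1 and Fundc1 lay lower in both arrays numbered 1 than in all 4 others, though none of these 4 passed. All values below are log2 expression levels as deposited, and levels are not compared between genes, since different probe sets do not share a scale.

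**Figure D1:**
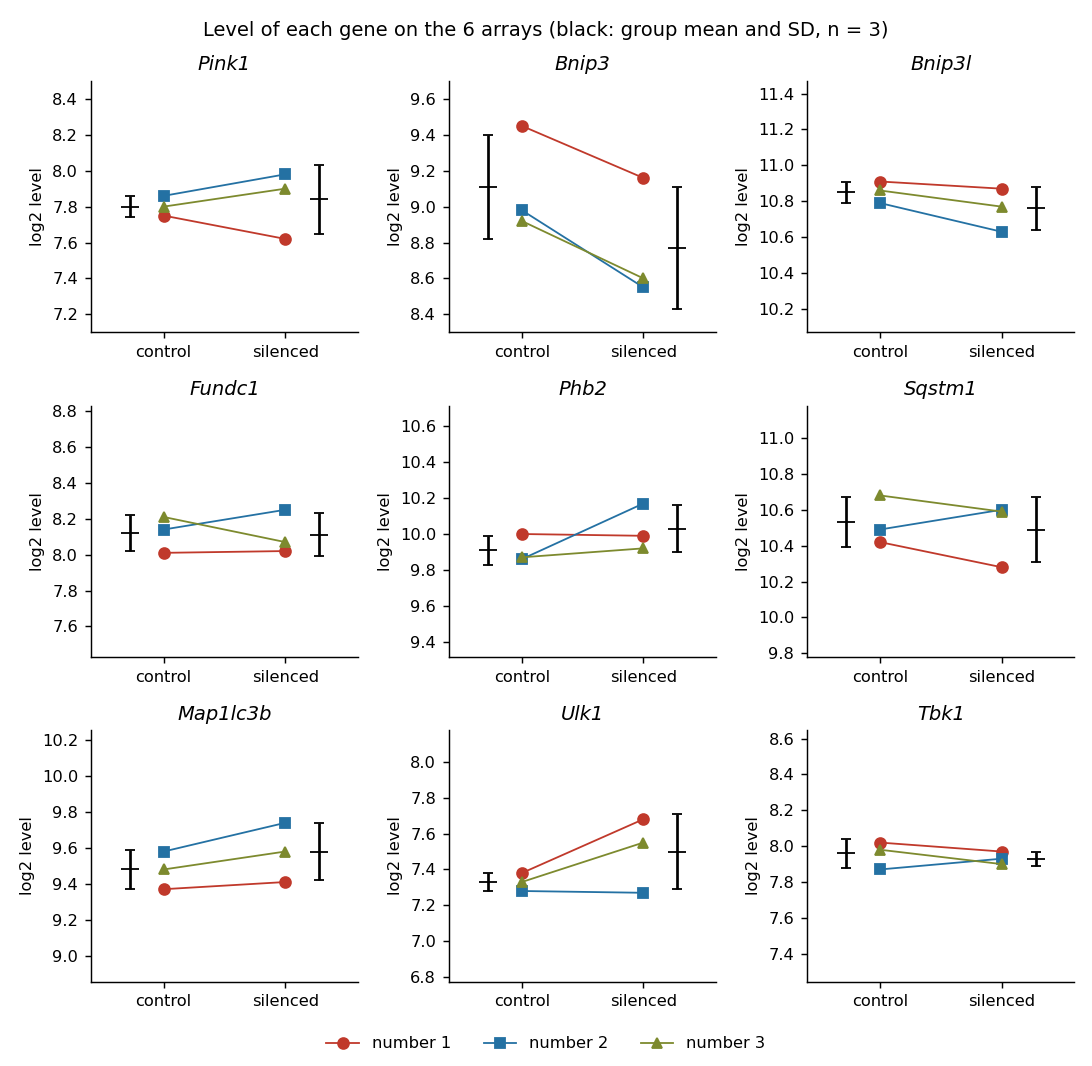
Log2 level (vertical axis, each panel spans the same number of log2 units) of the 9 genes in control and silenced arrays, with same-numbered arrays joined by a line and the group mean and SD (n = 3) in black. In the row used, Bnip3 reads from 8.55 to 9.45, with number 1 highest in each group and silenced below control at each number. The 2 groups overlap for every gene.

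Bnip3 encodes an outer-membrane receptor that binds LC3 and promotes mitophagy. It read 9.45, 8.98 and 8.92 in control arrays 1, 2 and 3, and 9.16, 8.55 and 8.60 in silenced arrays 1, 2 and 3. Silenced arrays 2 and 3 were the lowest of the 6, but silenced array 1 lay above control arrays 2 and 3, so the groups overlapped. The means were 9.11 ± 0.29 (SD, n = 3) in control and 8.77 ± 0.34 (SD, n = 3) in silenced arrays. The difference was -0.34 ± 0.20 (SE), 1.27-fold lower, and did not pass limma (adjusted p = 0.871 over all 11292 genes tested). Here and below, a gene is called at an adjusted p under 0.05. For silenced against control 0 of 11292 genes were called (percent called 0), so the absence of a call among the 9 does not set them apart. Without adjustment, 0 of the 9 genes and 542 of all genes (4.80%) had a limma p under 0.05.

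In the row used, Bnip3 differed within replicate numbers 1, 2 and 3 by -0.28, -0.43 and -0.32, lower in silenced arrays in 3 of 3 pairs. With the replicate number as a block, which takes the shared difference of same-numbered arrays out of the error, the standard error shrank to 0.08. The 95% confidence interval of the difference was then -0.53 to -0.16, against -0.82 to 0.13 without the block. Bnip3 was the 1 gene of the 9 under 0.05 without adjustment in that limma fit, as were 10.3% of all genes. Its adjusted p was 0.464, and 0 of 11292 genes were called (percent called 0). Without both arrays numbered 1, an alternative chosen after seeing the data, the difference was -0.37 (limma, adjusted p = 0.459). The size of the difference rested partly on single arrays and ranged from -0.54 without silenced replicate 1 to -0.18 without control replicate 1. The other row of Bnip3, described below, was not lower in silenced arrays at number 1 (8.89 against 8.87 in control). With the block that row gave -0.44 ± 0.16 (SE), with a 95% confidence interval of -0.82 to -0.059 (limma, adjusted p = 0.465).

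**Figure D2:**
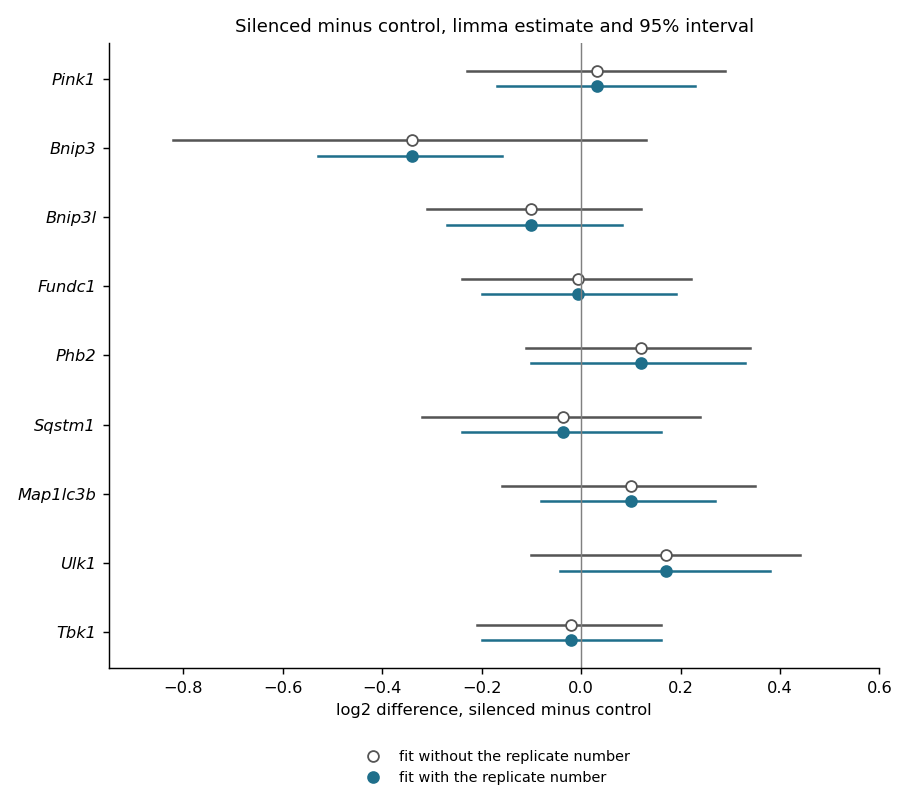
Log2 difference, silenced minus control (horizontal axis), of each gene with its 95% limma confidence interval, without (open, grey) and with (filled, blue) the replicate number in the fit. The Bnip3 interval with the number, -0.53 to -0.16 in the row used, is the only one shown that leaves out 0. Its adjusted p was 0.464.

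Bnip3l encodes NIX, the paralogue of BNIP3 known for clearing mitochondria from maturing red cells. It read 10.91, 10.79 and 10.86 in control arrays and 10.87, 10.63 and 10.77 in silenced arrays, each in the order of replicate numbers 1 to 3. It had the same order within each number as the row used of Bnip3, with silenced below control in 3 of 3 pairs, by -0.040, -0.16 and -0.084. The difference of -0.10 ± 0.09 (SE) was far smaller than that of Bnip3 and did not pass limma (adjusted p = 0.885), and the groups overlapped. Fundc1 encodes another outer-membrane receptor, which is regulated by phosphorylation. It read 8.01, 8.14 and 8.21 in control and 8.02, 8.25 and 8.07 in silenced arrays, with a difference of -0.0073 (95% confidence interval -0.24 to 0.22, limma, adjusted p = 0.993). Its direction changed between numbers: 2 of 3 pairs were higher in silenced arrays.

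Pink1, the kinase that marks damaged mitochondria, read 7.75, 7.86 and 7.80 in control and 7.62, 7.98 and 7.90 in silenced arrays. Silenced array 1 was the lowest and silenced arrays 2 and 3 the highest of the 6, so silenced arrays spread more widely (SD 0.19, n = 3) than control arrays (SD 0.06, n = 3). The difference was 0.031 ± 0.11 (SE) and did not pass limma (adjusted p = 0.969). Phb2 encodes prohibitin 2, an inner-membrane scaffold that also binds LC3 once the outer membrane has opened. It read 10.00, 9.86 and 9.87 in control and 9.99, 10.17 and 9.92 in silenced arrays. Its difference of 0.12 ± 0.10 (SE) came mostly from replicate number 2, where silenced exceeded control by 0.31, against -0.0070 and 0.049 at numbers 1 and 3 (limma, adjusted p = 0.878).

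Sqstm1 encodes p62, which binds ubiquitin and LC3 and is itself degraded by autophagy. It read 10.42, 10.49 and 10.68 in control and 10.28, 10.60 and 10.59 in silenced arrays. The 3 pairs did not share a direction, and the difference was -0.037 (95% confidence interval -0.32 to 0.24, limma, adjusted p = 0.968). A further row that the annotation assigns to both Sqstm1 and Mrnip read between 6.88 and 7.31 on the 6 arrays and was not used. Map1lc3b, which encodes the LC3B protein that coats the autophagosome, read 9.37, 9.58 and 9.48 in control and 9.41, 9.74 and 9.58 in silenced arrays. It was the 1 gene of the 9 that was higher in silenced arrays within all 3 numbers, by 0.040, 0.15 and 0.093, a pattern shown by 19.7% of all genes. In the rows used, Bnip3 and Bnip3l were lower within all 3, as were 15.8% of all genes. The Map1lc3b difference of 0.10 ± 0.11 (SE) did not pass limma (adjusted p = 0.904).

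Ulk1 encodes the kinase that starts autophagosome formation under the control of AMPK and mTORC1. It read 7.38, 7.28 and 7.33 in control and 7.68, 7.27 and 7.55 in silenced arrays. Silenced arrays 1 and 3 were the highest of the 6 and silenced array 2 the lowest, so that the difference was 0.30 and 0.22 within numbers 1 and 3 and -0.0073 within number 2. The mean difference was 0.17 ± 0.12 (SE), with a 95% confidence interval of -0.10 to 0.44 (limma, adjusted p = 0.871). Tbk1 encodes the kinase that phosphorylates OPTN and SQSTM1 and also acts in antiviral signalling. It read 8.02, 7.87 and 7.98 in control and 7.97, 7.93 and 7.90 in silenced arrays, the narrowest range of the 9 genes over the 6 arrays (0.15). Its difference was -0.021 (95% confidence interval -0.21 to 0.16, limma, adjusted p = 0.972). The intervals include 0 but also differences as large as those named, and a p that misses the threshold does not show that the groups were alike.

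Set against control, 4 of the 9 genes averaged higher and 5 lower after silencing, and their median difference was -0.0073. Over all tested genes the median was 0.0089, with 5951 higher and 5341 lower. Silenced and control values overlapped for all 9 genes, whereas 11.8% of all genes had groups that did not overlap. The 9 genes all passed the filter on low levels, in both groups alike, since it used the mean over all 6 arrays.

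The replicate number was tested as a factor with the group in the model. By the limma F-test over the 3 numbers, 1 of the 9 genes passed, Bnip3 (adjusted p = 0.0431), against 3.12% of all genes. The contrast of number 1 with the mean of numbers 2 and 3 was chosen with earlier results known, which had set the arrays numbered 1 apart. In it 1 of the 9 genes passed limma, again Bnip3, against 6.49% of all genes, or 2.92% in the higher direction. In the lower direction 0 of the 9 passed, against 3.57%. These counts over all genes fell from 733 (6.49%) to 48 without control replicate 3 and 41 without silenced replicate 3, and rose to 1228 without control replicate 1. They were 428 without control replicate 2 and 431 without silenced replicate 2. The F-test called 352 genes, and 17 without control replicate 3 and 17 without silenced replicate 3. It called 1070 without control replicate 1, 884 without silenced replicate 1 and 229 without silenced replicate 2.

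**Figure D3:**
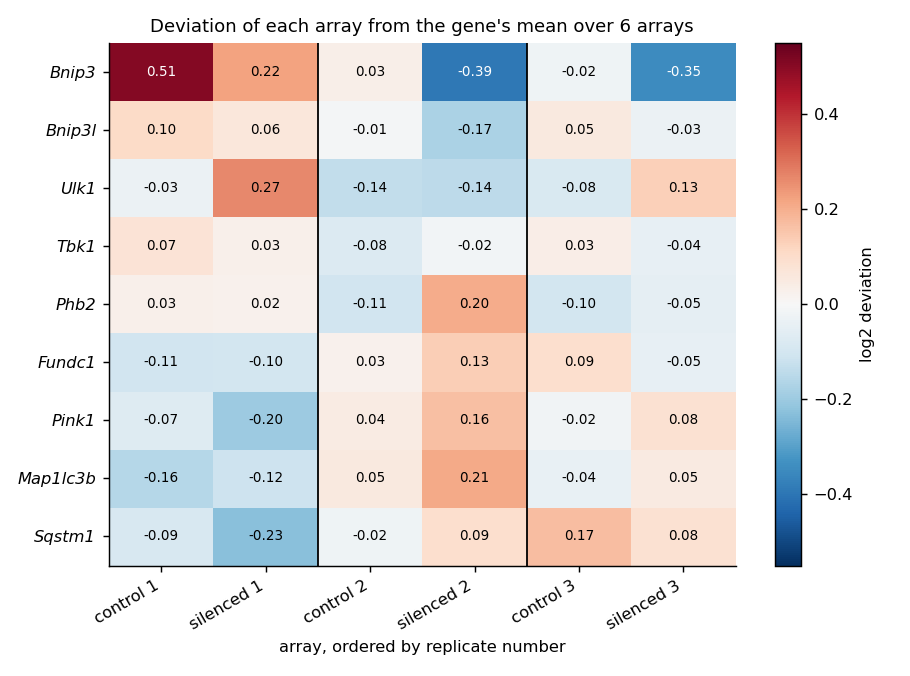
Deviation of each array (columns, ordered by replicate number) from the gene's own mean over the 6 arrays, in log2 units, as colour and printed value. Bnip3 deviates by 0.51 and 0.22 in the arrays numbered 1, while Sqstm1, Map1lc3b, Pink1 and Fundc1 are below their means there.

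Bnip3 averaged 9.31 over the 2 arrays numbered 1 and 8.76 over the other 4, a difference of 0.55 ± 0.080 (SE; limma, adjusted p = 0.0178). Both arrays numbered 1 lay above all 4 others, by 0.50 on average among control arrays and 0.59 among silenced arrays. Numbers 2 and 3 differed by 0.0049. In limma the call was lost without control replicate 3 (0.54, adjusted p = 0.0907) and without silenced replicate 3 (0.55, adjusted p = 0.0976). The adjusted p was 0.0101 to 0.0420 without any one of the other 4 arrays, and 0.0816 for the same difference of 0.55 fitted without the group term, where the call was lost too. The F-test call on Bnip3 was lost without any one of control replicates 2 or 3 or silenced replicates 1, 2 or 3.

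Bnip3 has a second single-gene row, and its reading bears on this call. The row used, probe set 10414269, was the one with the higher mean. The other, probe set 10568785, read 8.87, 8.64 and 8.66 in control and 8.89, 7.80 and 8.16 in silenced arrays. It too was higher in number 1 than in all 4 others, by 0.56 ± 0.17 (SE), but more variable, and it did not pass (limma, adjusted p = 0.105). For silenced against control it gave -0.44 ± 0.25 (SE; adjusted p = 0.871), with silenced array 1 level with control array 1. The 2 rows correlated at 0.90 over the 6 arrays, a description with no test, since they share the arrays. The annotation does not say which row carries signal from a processed copy of the gene. Probe set numbers of the members with 1 row rise in the order of chromosomes 10, 11, 4, 5, 6 and X. Bnip3 lies on chromosome 7, and 10568785 falls between Phb2 (chromosome 6, 10541711) and Fundc1 (chromosome X, 10603785). The row used falls between Sqstm1 (chromosome 11, 10385572) and Pink1 (chromosome 4, 10517600). By this order the row that did not pass fits the locus of Bnip3 better, though neither row was mapped. The call on Bnip3 holds only for the row used. The 2 rows of Bnip3l and of Map1lc3b gave number differences close to each other, 0.12 and 0.14 for Bnip3l and -0.20 and -0.19 for Map1lc3b. RefSeq lists a pseudogene of Bnip3l, so its rows can also hold signal of more than 1 locus.

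**Figure D4:**
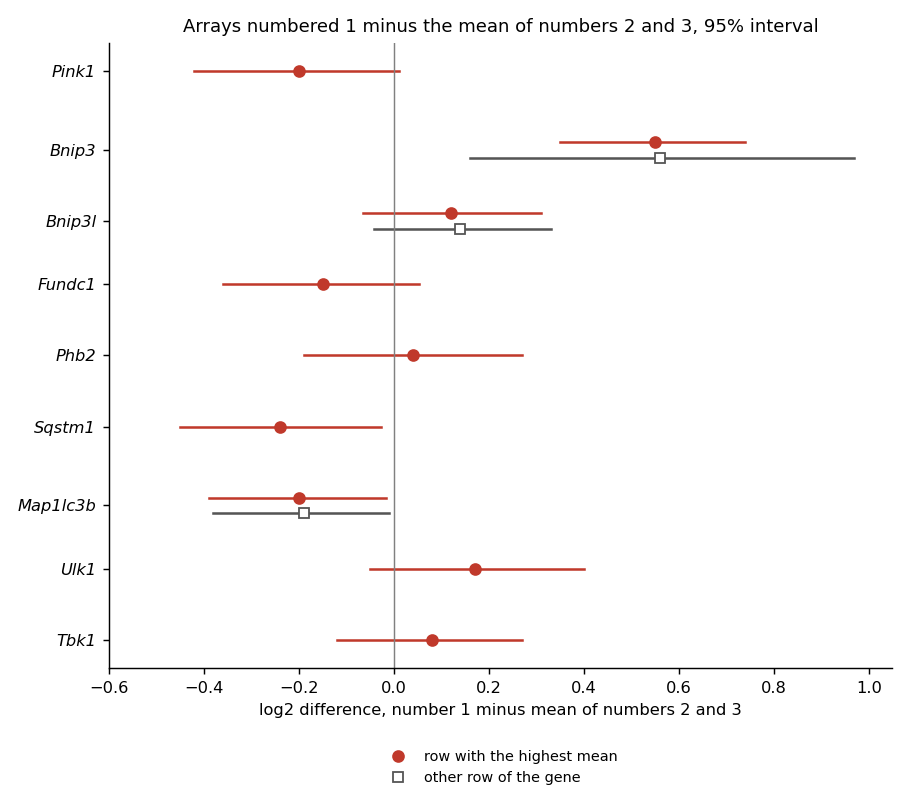
Log2 difference of the arrays numbered 1 from the mean of numbers 2 and 3 (horizontal axis) with 95% limma confidence intervals, for the row used (filled, red) and for the other row of the 3 genes that have 2 (open, grey). Bnip3 stands at 0.55 and 0.56 in its 2 rows, and Sqstm1 is the lowest at -0.24.

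Sqstm1 averaged 10.35 in number 1 and 10.59 in the others, a difference of -0.24 ± 0.089 (SE; limma, adjusted p = 0.163). With an intensity trend in the variance model it passed (adjusted p = 0.0324). Map1lc3b differed by -0.20 ± 0.078 (SE; adjusted p = 0.175) and Pink1 by -0.20 ± 0.089 (SE; adjusted p = 0.221), neither of which passed limma. In both of these genes the arrays numbered 1 were the 2 lowest of the 6. Fundc1 showed the same order, with a difference of -0.15 ± 0.087 (SE; adjusted p = 0.333), and Bnip3l was higher in number 1 by 0.12 ± 0.079 (SE; adjusted p = 0.386). In all, the arrays numbered 1 lay outside the range of the other 4 for 6 of the 9 genes, against 31.3% of all genes. For 2 of the 9 they lay above, against 16.0%, and for 4 of the 9 below, against 15.3%. Without adjustment, Bnip3, Sqstm1 and Map1lc3b (3 of 9) had a limma p under 0.05, as did 24.8% of all genes.

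The other 3 genes did not separate by number. Ulk1 was higher in number 1 by 0.17 ± 0.093 (SE; adjusted p = 0.310), but its control arrays spanned only 7.28 to 7.38 and most of this difference came from silenced array 1. Tbk1 differed by 0.08 ± 0.08 (SE; adjusted p = 0.618) and Phb2 by 0.04 ± 0.10 (SE; adjusted p = 0.846) in limma. Over the 6 arrays Bnip3 and Bnip3l correlated at 0.86 and each ran opposite to Map1lc3b, at -0.89 and -0.98. These are descriptions over 6 arrays that include the shared number difference.

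The genes whose pattern over the 6 arrays was most like that of each member, out of 11291 others, were found by Pearson correlation. For Bnip3 they were Ciapin1 (0.996) and Mgarp (0.992), for Bnip3l Rev3l (0.997) and Luc7l3 (0.995), and for Pink1 Fstl1 (0.998) and Eif3h (0.990). For Sqstm1 they were Slc25a36 (0.998) and Ppt1 (0.995), and for Map1lc3b St3gal5 and Rell1 (0.993 each). Correlation ignores size: Ciapin1 differed between number 1 and the others by 0.19, where Bnip3 differed by 0.55. With 6 arrays and so many genes, some values near 1 are to be found for almost any pattern.

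The 250 bases before the start site of Bnip3, the only gene called, are shown with those of Phb2. These were the only windows that held ACGTG, a form of the core of the hypoxia response element. The other form of that core, GCGTG, was not searched and is not marked. It stands in the windows of Bnip3, Optn and Pink1 among others, so the 2 windows shown are not the only ones with a core. Windows were available for 9 of the 10 genes (not Bnip3l), from RefSeq on GRCm38.p6. The Fundc1 window lies inside the annotated span of its gene, and those of Optn and Ulk1 do so in part. For these genes the window is not the sequence before the outer end of the gene. Capitals mark matches, on either strand, to the 6 motifs searched. Bnip3 lies on the minus strand at chr7:138909507-138909756 and Phb2 on the plus strand at chr6:124712039-124712288, both written 5′ to 3′ along the gene.
Bnip3: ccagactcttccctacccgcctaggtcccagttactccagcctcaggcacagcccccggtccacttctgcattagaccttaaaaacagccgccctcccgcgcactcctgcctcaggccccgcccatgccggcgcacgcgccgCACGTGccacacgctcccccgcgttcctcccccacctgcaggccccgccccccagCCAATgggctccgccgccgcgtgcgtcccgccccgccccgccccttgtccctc
Phb2: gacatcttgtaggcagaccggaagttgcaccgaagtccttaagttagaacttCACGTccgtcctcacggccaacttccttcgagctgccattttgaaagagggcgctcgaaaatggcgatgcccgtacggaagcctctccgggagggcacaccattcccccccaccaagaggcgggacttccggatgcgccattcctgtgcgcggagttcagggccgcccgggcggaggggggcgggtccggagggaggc

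In the Bnip3 window the match is CACGTG, starting 108 bases before the start site, which holds ACGTG on both strands. These letters were also searched as the E-box of lysosomal genes, but they are a general E-box and not particular to such genes. A CCAAT box starts 53 bases before the start site. Of all 32851 windows, 16.6% held ACGTG, 6.02% CACGTG and 33.8% CCAAT. The core of the antioxidant response element (TGACNNNGC, 10.2% of windows), a forkhead site (GTAAACA, 3.17%) and the composite ATF4 site (TGATGNAA, 3.45%) were found in none of the 9 windows. Phb2, with ACGTG starting 198 bases before its start site, differed by 0.04 between number 1 and the others. A match is a description of letters and not of binding.

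The other genes of the pathway were read from 12 lists with 136 genes, 129 of them tested. For silenced against control 0 of the 129 were called by limma, with or without the block, and 63 averaged higher and 66 lower after silencing (median -0.0049). Without adjustment 5 of the 129 (3.88%) had a p under 0.05, against 4.80% of all genes, and all 5 were higher in silenced arrays. These were Pik3r4 of the lipid kinase complex of initiation, and Mtor, Rptor, Tsc2 and Prkaa2 of the mTORC1 and AMPK list, the nutrient-sensing complexes upstream of ULK1. With the block, 11 of the 129 (8.53%) were under it, against 10.3% of all genes.

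Prkaa2, a catalytic subunit of AMPK, had the smallest p of the higher genes, at 6.03, 6.16 and 6.23 in control and 6.73, 6.39 and 6.66 in silenced arrays. Its groups did not overlap, as was so for 11.8% of all genes, and the difference was 0.45 ± 0.11 (SE; limma, adjusted p = 0.871). Rptor, the scaffold of mTORC1, differed by 0.31 ± 0.08 (SE) and Mtor by 0.22 ± 0.07 (SE), each with an adjusted p of 0.871 in limma, and both are named after their values were seen. Atg4a, a protease that trims ATG8 proteins, had the smallest p of the lower genes, at 8.74, 8.92 and 8.93 in control and 8.43, 8.79 and 8.58 in silenced arrays. Its groups overlapped and the difference was -0.26 ± 0.11 (SE; adjusted p = 0.871).

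Between number 1 and the other numbers, 16 of the 129 pathway genes (12.4%) were called by limma, 2 higher and 14 lower, against 6.49% of all genes. Of these 16, 9 belonged to the 10 genes of the ATF4 list, the effectors of the integrated stress response, and all 9 were lower. In the other 11 lists 7 of 119 genes were called (5.88%). Of the 16, 5 were also called without control replicate 3 and 4 without silenced replicate 3, and Atf3, Ppp1r15a, Slc7a11 and Trib3 were in both. There were 11 of the 16 without silenced replicate 2, and 12 to 14 without any one of the other 3 arrays. None of the 11 initiation, 8 membrane growth, 9 conjugation and 4 other ATG8 genes passed, nor any of the 8 other mitophagy receptors, 17 mitochondrial ubiquitin genes or 9 other adaptors.

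**Figure D5:**
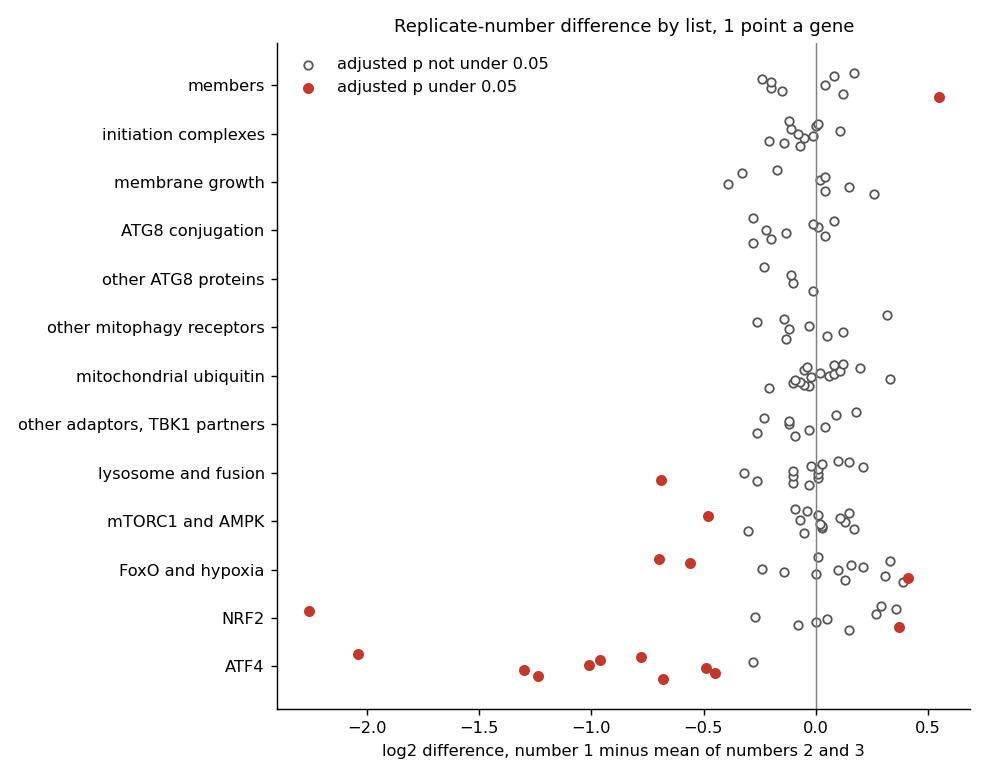
Log2 difference of the arrays numbered 1 from the mean of numbers 2 and 3 (horizontal axis), 1 point a gene, for the 9 members and 12 lists of pathway genes; filled points had a limma adjusted p under 0.05. Bnip3 is the filled point of the members at 0.55, and 9 of the 10 ATF4 genes are filled and below 0.

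Genes known to regulate Bnip3 or to share its hypoxia response did not all pass in the same direction. Of 14 tested genes of the FoxO and hypoxia list 3 passed limma, 1 higher and 2 lower in number 1. Of all genes 6.49% passed, 2.92% higher and 3.57% lower. Egln1, an oxygen sensor, was higher in number 1 by 0.41 ± 0.08 (SE; adjusted p = 0.0396) and is named after its value was seen. Vegfa, the angiogenic factor, was lower by 0.70 (-0.70 ± 0.083 SE; adjusted p = 0.0112), as was Ndrg1 (-0.56 ± 0.076 SE; adjusted p = 0.0142). Of the 14, 10 averaged higher in number 1, as Bnip3 did, and 4 lower, and the list's median was 0.12, against 0.0053 over all genes. Of the hypoxia-responsive genes, Ankrd37 differed by 0.39 (adjusted p = 0.130), Pdk1 by 0.33 (adjusted p = 0.0644) and Egln3 by 0.31 (adjusted p = 0.0677) in limma. Higd1a differed by 0.21 (adjusted p = 0.195) and Kdm3a by 0.16 (adjusted p = 0.411) in limma. None of them passed, and all are named after their values were seen. Vegfa read 9.59, 10.32 and 10.13 in control and 9.51, 10.30 and 10.25 in silenced arrays, so it ran opposite to Bnip3 across numbers. Hif1a itself differed by -0.24 ± 0.09 (SE; adjusted p = 0.156), Foxo1 by 0.00 ± 0.09 (SE) and Foxo3 by -0.14 ± 0.08 (SE; adjusted p = 0.335), none of which passed limma. These are RNA levels, and the protein level and activity of these regulators were not measured.

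The NRF2 list holds antioxidant genes that share a known regulator with Sqstm1, and also the regulators Nfe2l2, Keap1 and Mafg. Of its 10 genes 2 passed, in opposite directions, against 2.92% of all genes higher and 3.57% lower. Slc7a11, the cystine transporter, read 4.92, 7.16 and 7.28 in control and 4.76, 6.97 and 6.98 in silenced arrays, a difference of -2.26 ± 0.08 (SE; limma, adjusted p = 0.000645). It is also a target of ATF4, as are Atf3 (-1.24 ± 0.081 SE; adjusted p = 0.00222) and Trib3 (-2.04 ± 0.16 SE; adjusted p = 0.00404). Gclm, a subunit of the enzyme that starts glutathione synthesis, was higher in number 1 by 0.37 ± 0.077 (SE; adjusted p = 0.0456). Elsewhere in the pathway, Epg5, a tether of autophagosomes to lysosomes, was lower in number 1 by 0.69 (-0.69 ± 0.08 SE; adjusted p = 0.0110), and Rheb, the activator of mTORC1, by 0.48 (-0.48 ± 0.08 SE; adjusted p = 0.0256).

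Some genes of the cell type marker lists also differed between numbers. C2C12 is a myoblast line, so the level of a fibroblast marker does not show that fibroblasts were in the dish. The 8 markers of undifferentiated, dividing myoblasts averaged 7.63 and 7.67 in the arrays numbered 1 and 7.26 to 7.54 in the others. Of them 3, the cell-cycle genes Ccnd1, Mki67 and Top2a, were called higher in number 1, as were 2.92% of all genes. Of the 8, 5 averaged higher in number 1 and 3 lower, the latter being Myf5 (-0.22), Pax7 (-0.13) and Id1 (-0.04), which were not called. The 6 fibroblast markers averaged 7.53 and 7.48 in number 1 and 7.73 to 7.96 in the others. Dcn and Lum of the 5 tested were called lower, as were 3.57% of all genes, and Thy1 was under the filter on low levels. The 10 myotube markers averaged 10.51 and 10.54 in number 1 and 10.40 to 10.76 in the others, with 0 called in the number contrast. Their average was 10.40 to 10.53 in control and 10.54 to 10.76 in silenced arrays, ranges that all but touch. Between groups limma called 0 of the 10, with 4 (Myh1, Myh3, Neb and Mymk) under 0.05 unadjusted, against 4.80% of all genes. Of all single genes, 11.8% had groups that did not overlap. The part of these markers in the results on Bnip3 and the other members was not tested. Of the 6 adipocyte markers 1 passed the filter on low levels, and Adipoq, Plin1, Fabp4, Cidec and Lep did not. The list averaged 3.43 to 3.52 in control and 3.48 to 3.57 in silenced arrays. The 6 osteoblast and chondrocyte markers averaged 4.18 to 4.40 in control and 4.13 to 4.28 in silenced arrays, with Sp7, Ibsp and Acan under the filter.

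Over the whole series the 6 arrays correlated pairwise between 0.985 and 0.995 over the tested genes, and their medians lay between 4.21 and 4.27.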

How the data were processed

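RNA of 3 silenced and 3 control samples was measured on 1-colour Affymetrix whole-transcript arrays. The deposited values are log2 expression levels of 35556 probe sets, for which the submitters' processing notes name RMA as the authors' method, with version and settings not given in the sources used here. This method shrinks differences of dim genes. No further normalization was applied. Of the probe sets, 21218 name 1 gene, 1881 several, and 12457 are not listed; 21185 of the single-gene rows matched RefSeq (GRCm38.p6) by Entrez identifier. Per gene the row with the highest mean was kept (18820 genes), and the 11292 above the 40th percentile of mean level (3.87) were tested.

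Fits used limma 3.58.1 in R 4.3.3 (lmFit, eBayes, 2-sided) with Benjamini-Hochberg adjustment over all 11292 genes. Silenced minus control had no covariate; the number tests had the group as covariate. The limma code was tested on simulated data. Same-numbered arrays deviated together from their group means (correlations 0.55, 0.35 and 0.42). Pairing by number was assumed, with no label for it. Deviations within a group offset each other, so a difference shared only by the arrays of a given number makes the other correlations positive too. Correlations between arrays of different numbers were not computed, so these values cannot decide whether every number is a true pair. The block fit, the F-test and the differences within numbers rest on this assumption. The members, lists, motifs and tests were chosen with earlier results of these data known. Named pathway genes are up to 2 per list with the smallest p among those called in the number contrast, and the gene with the smallest p in each direction for silenced minus control. For each member the 2 genes most like it in pattern were also sought. Alternatives varied the filter, normalization, variance model, row of a gene, group term and arrays. No detection calls were used. Precision is limited by the small number of arrays.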

Additional observations from a re-analysis of the deposited data

How the results depend on the processing

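For silenced against control 0 of all genes and 0 of the 9 members were called under every alternative run, the replicate block included, which gave 1168 genes at an unadjusted p under 0.05 against 542 without it and changed no call. Counts for the replicate number moved most. The F-test called 352 genes, but 58 with no low-value filter, 847 with the filter at the 60th percentile, 1090 with an intensity trend, and 17 (without control replicate 3 or silenced replicate 3) to 1070 (without control replicate 1) when 1 array was left out. Number 1 against the mean of numbers 2 and 3 called 733 genes, and 252, 1176, 1458 and 41 (without silenced replicate 3) to 1228 (without control replicate 1) in the same order. Among members the F-test call on Bnip3 became 0 calls with no filter, with the mean of all rows, without the group term and with the other row, and 0 to 1 without single arrays. In the contrast there were 2 calls (Bnip3 and Sqstm1) with the intensity trend, 0 without the group term (Bnip3 adjusted p = 0.0816) or with the other row (an alternative chosen after seeing the data), and 0 to 1 without single arrays. Repeated quantile normalization and median centring changed no member's call or direction. Of 252 member values under alternatives, 235 kept direction and side of the threshold, 4 lost a call, 1 gained one and 12 changed sign. The sign changes for silenced against control were Sqstm1 without both arrays numbered 1 (0.015) and, over single arrays left out, Pink1 (-0.043 to 0.14), Fundc1 (-0.076 to 0.041), Sqstm1 (-0.093 to 0.069) and Tbk1 (-0.065 to 0.010). In the number contrast it was Phb2 (-0.054 to 0.13). None of these was called. The causes were not tested.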
